A study of Mus musculus with 12 samples.

Results

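The cathepsins and legumain described here are 10 protease genes, Ctsa, Ctsb, Ctsc, Ctsd, Ctsh, Ctsk, Ctsl, Ctss, Ctsz and Lgmn, read from a gene count table of 39756 genes by matching each symbol to the table's gene name. All 10 were present, and all 10 were among the 17558 genes with enough counts to be tested. The counts came from poly(A) RNA of brain hemispheres of 12 male C57BL/6J mice aged 9 to 10 weeks, 4 in each of 3 groups. In mice with an occlusion the hemisphere was the ischemic one. Libraries were sequenced as paired reads of 150 bases. Sham mice had sham surgery and saline. Vehicle mice had saline and tMCAO, that is a 45 min closure of the middle cerebral artery by a filament whose withdrawal lets blood return. LJP mice had the same occlusion and received Laminaria japonica polysaccharide (LJP), a sulfated polysaccharide of a brown seaweed, by gavage on each of the 14 days before surgery and afterwards. Doses of 100, 200 and 400 mg/kg were used in the study, of which 200 mg/kg was chosen for the experiments that followed the comparison of doses. The time after occlusion at which the sequenced hemispheres were taken is not given in the sources used here. All 12 libraries carry the same batch label, and none of the groups received LJP without occlusion. Each library is a whole hemisphere, in which injured and spared tissue are mixed after an occlusion. Total counts lay between 17960353 and 22216315 per mouse, and 3 counts, up to which an observed 0 leaves room, correspond to 0.129 to 0.173 CPM (counts per 1000000 counts of the normalized library). These floors cover counting error only.

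Cathepsins are proteases of the lysosome, the acidic compartment in which cells break down proteins taken up from outside or delivered from within. They are made as inactive precursors, are carried to the lysosome mainly by mannose 6-phosphate receptors, and are activated there when their propeptide is cut off. In brain they are abundant in microglia and macrophages, which clear debris after injury, and neurons and other cells also use them. Cystatins are the main protein inhibitors of those cathepsins that are cysteine proteases. The group is defined by its compartment rather than by ancestry: Ctsb, Ctsc, Ctsh, Ctsk, Ctsl, Ctss and Ctsz encode cysteine proteases related to papain, Ctsd an aspartic protease, Ctsa a serine carboxypeptidase, and Lgmn the cysteine protease legumain, which cuts after asparagine and processes several of the cathepsins.

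Promoter sequences are shown for the genes that hold a site of interest, to let the letters they share be seen beside their levels. RefSeq promoters of GRCm38.p6, each running from 250 bases before to 50 bases after a transcript start, were available for 8 of the 10 genes and gave 10 promoters; Ctsb and Ctsh were not among them. Both strands were searched. The CLEAR core TCACGTG, the site bound by TFEB and related regulators of lysosomal genes, was found in the promoters of Ctsa, Ctsd and Lgmn, that is in 3 of the 10 promoters, against 3.77% of all 32851 promoters. It contains the shorter E-box CACGTG, which was found in 4 of 10 promoters (Ctsa, Ctsd, Ctsl and Lgmn) against 7.15% of all. The core GAGGAAGT of the myeloid factor PU.1 was found in the promoters of Ctsc and Ctss, 2 of 10 against 3.2% of all. A STAT site, TTCNNNGAA, was found in the Ctsc promoter alone, 1 of 10 against 8.3% of all, and the AP-1 site TGANTCA in none of the 10, against 7.81% of all. At the sites shown for Ctsa and Ctsd the core was matched on both strands, and each promoter holds a further CLEAR core that is not shown. A match describes the letters of the window and is no evidence of binding. In the lines that follow capitals mark the motif, and each sequence is given 5′ to 3′ on the strand of its gene; starts are those of the promoter table, which lists 2 each for Ctsa and Lgmn. The starts used here lie 901 bases inside the gene from its 5′ end for Ctsa, 636 for Lgmn, 252 for Ctsl and 61 for Ctsc, so that the sites shown for Ctsa, Lgmn and Ctsl lie within the gene, and those of Ctsd and Ctss are the gene's own 5′ end.
Ctsd, CLEAR core 99 bases before the start, chr7:142387910-142387936, minus strand: cgcccgcgtcTCACGTGacccgttgag
Lgmn, CLEAR core 50 bases before a start inside the gene, chr12:102439126-102439152, minus strand: ggaatgtctgTCACGTGgtccatttta
Ctsa, CLEAR core 13 bases before a start inside the gene, chr2:164833750-164833776, plus strand: gagcaaactgTCACGTGatgcagatgc
Ctsl, E-box 236 bases before a start inside the gene, chr13:64370741-64370766, minus strand: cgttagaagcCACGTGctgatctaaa
Ctsc, PU.1 core read on the opposite strand 151 bases before a start inside the gene, chr7:88277924-88277951, plus strand: tcactaactaACTTCCTCaggccacctc
Ctss, PU.1 core read on the opposite strand across the start, chr3:95526774-95526801, plus strand: atgaaagttcACTTCCTCattgtggatg

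To learn whether these proteases changed with ischemia and reperfusion, levels in the Vehicle group were compared with those in the Sham group. The test was the quasi-likelihood test of edgeR fitted to all 12 mice, with p-values adjusted over the 17558 genes. All of the genes except Ctsk were higher in the Vehicle group at an adjusted p below 0.05. That is 9 of 10, where 22.7% of all genes tested were higher by the same rule and 17.3% lower. In the same 9 genes every Vehicle mouse lay above every Sham mouse, which held for 20.7% of all genes. DESeq2, another count test, called all 10, against 20.4% of the genes it tested. The study set its thresholds (an absolute log2 fold change over 0.58 and p below 0.01) on DESeq2. Applied here to the edgeR values, they were passed by 9, against 15.3% of all genes. The median log2 fold change of the 10 genes was 2.17, against 0.00 over all genes. The share of all counts taken by the 10 genes together was 0.118% ± 0.00567 (SD, n = 4 mice) in Sham and 0.437% ± 0.145 (SD, n = 4 mice) in Vehicle mice. In RNA of a whole hemisphere, more cells of a type and more RNA per cell cannot be told apart.

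Cathepsin B, a cysteine protease that acts both as an endopeptidase and as a dipeptidyl carboxypeptidase, is encoded by Ctsb (Entrez Gene 13030, chromosome 14 from 63122462 to 63145923, plus strand; all positions are those of the count table and equal GRCm38). Its level was 541, 550, 561 and 586 CPM in Sham mice 1 to 4 and 1019, 1900, 1277 and 1399 CPM in Vehicle mice 1 to 4. LJP mice 1 to 4 had 1287, 856, 1493 and 847 CPM. Every mouse with an occlusion was therefore above every Sham mouse, and the LJP mice fell into a higher pair (1 and 3) and a lower pair (2 and 4). The log2 fold change between Vehicle and Sham was 1.32 (standard error 0.21, adjusted p = 0.00073), a 2.50-fold rise with a 95% interval of 1.83 to 3.41.

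Cathepsins L and S are endopeptidases, and both trim the invariant chain of MHC class II, cathepsin L in thymic epithelium and cathepsin S in most antigen-presenting cells. Ctsl (Entrez Gene 13039, chromosome 13 from 64361890 to 64370772, minus strand) was at 59.2, 68.1, 66.7 and 70.3 CPM in Sham mice 1 to 4, and at 307, 538, 209 and 229 CPM in Vehicle mice 1 to 4. LJP mice 1 to 4 had 186, 113, 256 and 132 CPM. Among the Vehicle mice, 1 and 2 were the highest for Ctsl, and 3 of the 4 LJP mice lay below all of them. The log2 fold change between Vehicle and Sham was 2.28 (standard error 0.31, adjusted p = 0.00032), a 4.86-fold rise. Ctss (Entrez Gene 13040, chromosome 3 from 95526786 to 95556405, plus strand) was at 36.1, 38.2, 38.2 and 40.2 CPM in Sham mice 1 to 4, and at 99.2, 204, 107 and 126 CPM in Vehicle mice 1 to 4. The values in LJP mice 1 to 4 were 137, 67.1, 137 and 84.1 CPM, the pair 1 and 3 lying above 3 of the 4 Vehicle mice. Ctss rose 3.51-fold in the Vehicle group (log2 fold change 1.81, standard error 0.26, adjusted p = 0.00042).

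Ctsk encodes cathepsin K, the collagen-degrading protease best known from osteoclasts (Entrez Gene 13038, chromosome 3 from 95499210 to 95509387, plus strand). It rested on few reads: 68, 53, 53 and 67 counts in Sham mice 1 to 4, 138, 422, 54 and 72 in Vehicle mice 1 to 4, and 50, 57, 62 and 74 in LJP mice 1 to 4. Vehicle mouse 2 stood far above the rest with 18.1 CPM and Vehicle mouse 1 had 6.26 CPM, while Vehicle mice 3 and 4, at 2.91 and 3.88 CPM, lay within the Sham range of 2.89 to 3.92 CPM. Its log2 fold change of 1.25 (standard error 0.47) just missed the threshold in edgeR (adjusted p = 0.0501). By DESeq2 it passed (adjusted p = 0.0216). Without Vehicle mouse 2 the log2 fold change was 0.40 (adjusted p = 0.277). An exact permutation test of the level gave p = 0.200 (two-sided).

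Cathepsins Z, H and C remove residues from the ends of proteins, Z as a carboxypeptidase, H mainly as an aminopeptidase, and C as the dipeptidyl peptidase that activates the serine proteases of neutrophils and cytotoxic lymphocytes. Ctsz (Entrez Gene 64138, chromosome 2 from 174427494 to 174439039, minus strand) was at 35.5, 39.5, 41.0 and 44.7 CPM in Sham mice 1 to 4, and at 142, 270, 194 and 197 CPM in Vehicle mice 1 to 4. The corresponding LJP values were 205, 101, 210 and 95.7 CPM. Ctsz rose 4.99-fold in the Vehicle group (log2 fold change 2.32, standard error 0.27, adjusted p = 0.00015), the smallest p-value of the 10 genes. In the LJP group its pair 1 and 3 lay just above Vehicle mice 3 and 4, while the pair 2 and 4 lay below every Vehicle mouse.

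Ctsh (Entrez Gene 13036, chromosome 9 from 90054267 to 90076095, plus strand) was at 8.54, 10.7, 7.01 and 9.22 CPM in Sham mice 1 to 4, and at 33.7, 79.6, 36.8 and 35.9 CPM in Vehicle mice 1 to 4. LJP mice 1 to 4 had 33.9, 16.6, 40.8 and 19.1 CPM. Vehicle mouse 2 stood apart, and the other 3 Vehicle mice were close to each other. The log2 fold change was 2.39 (standard error 0.34, adjusted p = 0.00044), and without Vehicle mouse 2 it was 1.99. Ctsc (Entrez Gene 13032, chromosome 7 from 88278024 to 88315861, plus strand) was low in Sham mice 1 to 4, at 6.23, 7.19, 6.25 and 6.89 CPM, and was at 50.0, 88.7, 32.5 and 30.6 CPM in Vehicle mice 1 to 4. The values in LJP mice 1 to 4 were 30.2, 13.6, 40.6 and 18.2 CPM. Its 7.60-fold rise in the Vehicle group, with a 95% interval of 4.22 to 13.7, was the largest of the 10 genes (log2 fold change 2.93, standard error 0.39, adjusted p = 0.00029). Without Vehicle mouse 2 the log2 fold change of Ctsc was 2.50.

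Ctsd encodes cathepsin D, the main aspartic endopeptidase of lysosomes (Entrez Gene 13033, chromosome 7 from 142375910 to 142387827, minus strand). Its level was 280, 310, 312 and 328 CPM in Sham mice 1 to 4, and 612, 2035, 1532 and 1863 CPM in Vehicle mice 1 to 4. LJP mice 1 to 4 had 1752, 771, 1899 and 815 CPM. Vehicle mouse 1 was the lowest of all 8 mice with an occlusion, and LJP mice 1 and 3 lay within the range of the other 3 Vehicle mice. Ctsd rose 4.91-fold (log2 fold change 2.30, standard error 0.37, adjusted p = 0.00084). Its share of the members' counts was 24.3 to 25.6% in Sham mice, 22.5% in Vehicle mouse 1, 34.0 to 42.1% in the other 3 Vehicle mice and 34.0 to 42.5% in LJP mice, whereas that of Ctsb went from 45.3 to 47.0% in Sham mice to 31.7 to 37.5% in Vehicle and 31.3 to 37.8% in LJP mice.

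Cathepsin A, a serine carboxypeptidase that also holds beta-galactosidase and neuraminidase in a stable complex, is encoded by Ctsa (Entrez Gene 19025, chromosome 2 from 164832872 to 164841032, plus strand). It was at 86.3, 86.5, 90.7 and 90.0 CPM in Sham mice 1 to 4, and at 148, 214, 165 and 176 CPM in Vehicle mice 1 to 4. Levels in the LJP mice 1 to 4 were 161, 119, 175 and 117 CPM. The 1.99-fold rise of Ctsa was the smallest among the 9 genes that passed the test (log2 fold change 0.99, standard error 0.14, adjusted p = 0.00042). Lgmn (Entrez Gene 19141, chromosome 12 from 102394082 to 102439728, minus strand) was at 93.5, 101, 101 and 103 CPM in Sham mice 1 to 4, and at 301, 628, 361 and 359 CPM in Vehicle mice 1 to 4. Levels in the LJP mice 1 to 4 were 323, 207, 426 and 205 CPM. Legumain transcripts thus rose 4.14-fold in the Vehicle group (log2 fold change 2.05, standard error 0.26, adjusted p = 0.00023), with no overlap between the groups. The genes whose promoters hold the CLEAR core shown above, Ctsa, Ctsd and Lgmn, thus rose 1.99-, 4.91- and 4.14-fold, and those with the PU.1 core, Ctsc and Ctss, 7.60- and 3.51-fold.

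**Figure D1:**
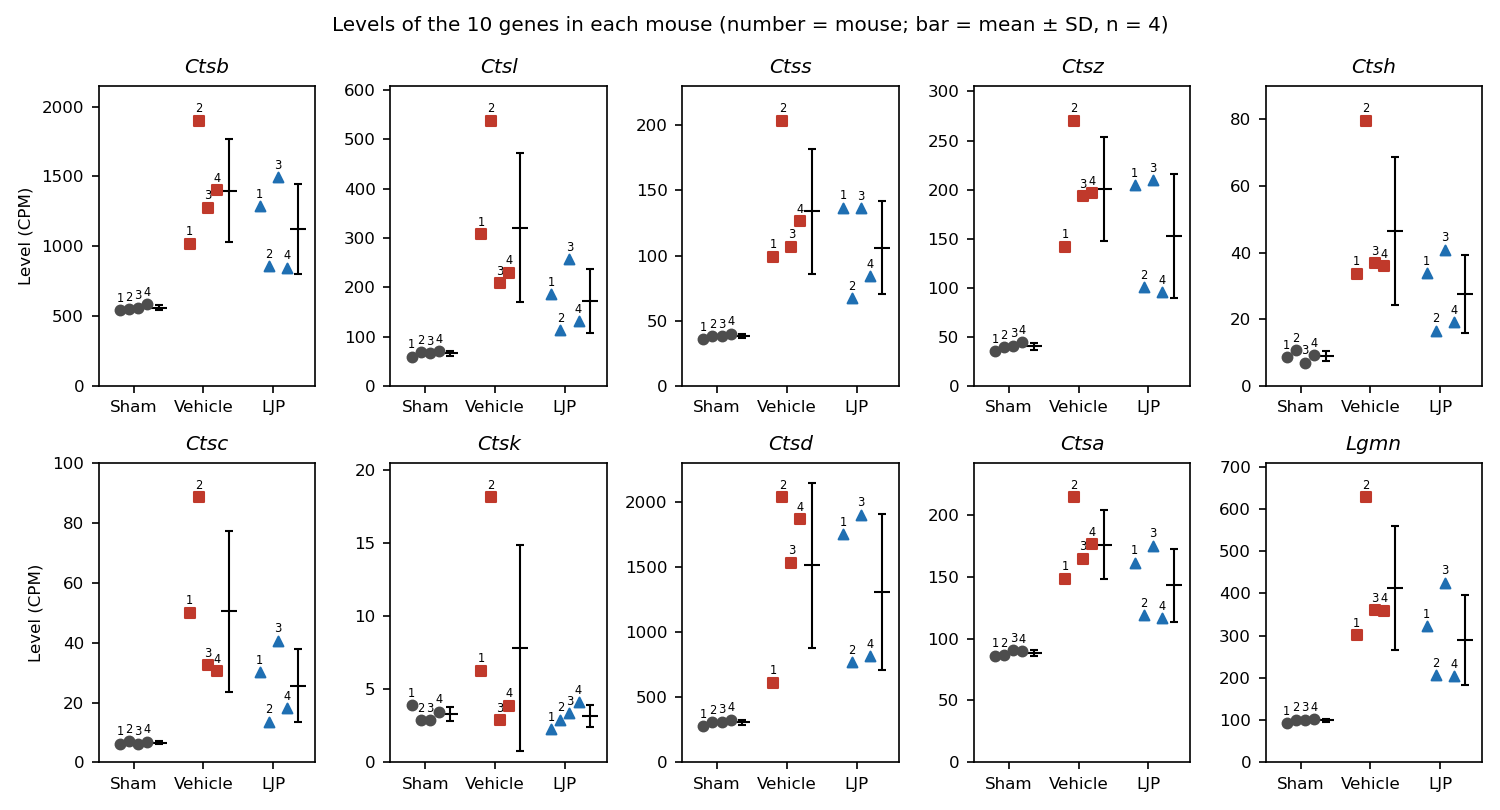
Each panel plots 1 gene, with its level in CPM on a linear axis from 0 and the 3 groups along the x axis; symbols are mice, numbered within their group, and the bars give the mean ± SD of 4 mice. Except for Ctsk, every Vehicle and LJP mouse lies above every Sham mouse, and LJP mice 1 and 3 tend to lie above LJP mice 2 and 4.

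The call of each of the 9 genes that rose was kept in all 12 fits that omitted 1 mouse. These fits called 18.2% to 25.3% of all genes higher. That of Ctsk was gained without Vehicle mouse 3 or 4, where 25.3% and 23.9% of all genes were higher. Several members lie beside a gene on the opposite strand, and the strand setting of the counts is not given, so reads from shared stretches could have been assigned to either gene. Ctsa shares 725 bases with Neurl2 and 1515 with Pltp, Ctsb shares 774 with Fdft1, and Ctsz shares 12 with Nelfcd. Their log2 fold changes between Vehicle and Sham were 0.39 for Neurl2 (adjusted p = 0.164), -0.38 for Pltp (adjusted p = 0.0768), 0.33 for Fdft1 (adjusted p = 0.0480) and 0.39 for Nelfcd (adjusted p = 0.00197).

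Levels can be compared between genes only per length, for which CPM was divided by the gene length in the count table. In Sham mice Ctsd led with 160 ± 10.4 CPM per kb (SD, n = 4), followed by Ctsb with 118 ± 4.15, Lgmn with 49.6 ± 2.05, Ctsz with 27.9 ± 2.65, Ctss with 26.4 ± 1.15, Ctsa with 24.0 ± 0.633, Ctsl with 18.5 ± 1.34, Ctsh with 5.32 ± 0.925, Ctsk with 1.46 ± 0.221 and Ctsc with 0.596 ± 0.0431. Of these neighbours only Ctsz and Ctss had ranges that overlapped. In Vehicle mice the order was Ctsd with 788 ± 331 CPM per kb, Ctsb with 295 ± 78.0, Lgmn with 205 ± 73.0, Ctsz with 139 ± 36.7, Ctss with 92.6 ± 33.0, Ctsl with 89.8 ± 42.2, Ctsa with 47.8 ± 7.63, Ctsh with 27.9 ± 13.2, Ctsc with 4.53 ± 2.42 and Ctsk with 3.46 ± 3.12. Here only Ctsl and Ctsa, and Ctsh and Ctsc, had ranges apart; the other neighbours overlapped, although within each of the 4 mice the order held except between Ctss and Ctsl (2 of 4 mice) and between Ctsc and Ctsk (3 of 4). With these lengths Ctsl stood above Ctsa in all 4 Vehicle mice, the reverse of their order in the Sham group. In LJP mice the order of the genes was that of the Vehicle group, from 683 ± 313 CPM per kb for Ctsd to 2.30 ± 1.09 for Ctsc and 1.41 ± 0.347 for Ctsk, with ranges apart between Ctsd and Ctsb, Ctsa and Ctsh, and Ctsh and Ctsc. The count table gives Ctsc a length of 11142 bases, whereas its longest coding transcript in GENCODE has 3220 bases; with GENCODE lengths Ctsc was at 2.06 CPM per kb in Sham and 15.7 in Vehicle mice and kept its rank of 10 and 9, while Ctsl and Ctsa were at 52.0 and 48.2 CPM per kb in Vehicle mice with ranges that overlapped, Ctsl being below Ctsa in Vehicle mice 3 (33.9 against 45.1) and 4 (37.2 against 48.3), Ctsa ranked above Ctsl in LJP mice, and Ctss, at 28.2 CPM per kb, ranked above Ctsz, at 27.9, in Sham mice.

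The members did not all vary alike across mice. Vehicle mouse 2 was the highest of its group for 10 of the 10 genes. Vehicle mouse 1 was the lowest of its group for 7 genes, yet it was the second highest for Ctsc, Ctsk and Ctsl. Relative to the Sham mean, Ctsd was higher by 0.99 on the log2 scale in Vehicle mouse 1 and by 2.32 in Vehicle mouse 3, while Ctsc was higher by 2.90 in Vehicle mouse 1 and by 2.28 in Vehicle mouse 3. In the LJP group, mouse 3 was in the upper pair for 10 genes and mouse 1 for 9, and the lowest place was taken by mouse 2 for 5 genes and by mouse 4 for 4. Sham mice were nearly level, with coefficients of variation from 2.63% for Ctsa to 17.4% for Ctsh.

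**Figure D2:**
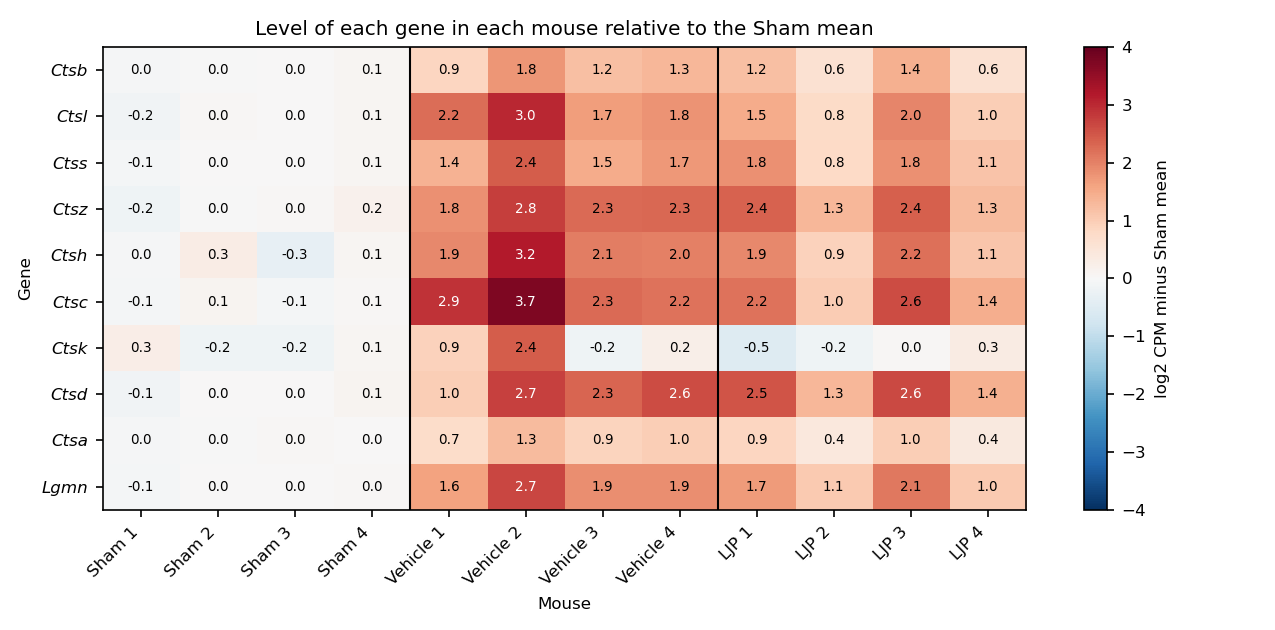
Each cell gives the log2 CPM of a gene (rows) in a mouse (columns) minus the mean of that gene in the Sham group; red is higher and blue lower, and black lines part the groups. Ctsd is pale in Vehicle mouse 1 where Ctsc and Ctsl are dark, Vehicle mouse 2 is the darkest of its group in every row, and Ctsk departs from the Sham level mainly in Vehicle mice 1 and 2.

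Markers of other cell types were summed in each mouse. Those of microglia, monocytes and macrophages, neutrophils, fibroblasts and mural cells, endothelium and neurons also differed between Vehicle and Sham mice. So did single markers of astrocytes and oligodendrocytes. They did not all follow the order of mice seen for the members, neutrophil markers being highest in Vehicle mouse 1. Between LJP and Vehicle, 7 of 8 microglial markers had a positive log2 fold change, where all 10 members had a negative one. The part of these cell types in the differences of the members was not tested. Summed over 8 microglial markers, such as Tmem119 and P2ry12, levels ranged from 246 to 250 CPM in Sham, 317 to 699 in Vehicle and 403 to 720 in LJP mice, and 5 of the 8 were higher in Vehicle than in Sham, where 22.7% of all genes were (the share that also stands beside the other marker counts here, with 17.3% for lower). Vehicle mouse 1, the lowest for Ctsd, had 317 CPM against 582 to 699 in the other 3 Vehicle mice, and LJP mice 2 and 4 had 405 and 403 CPM against 720 and 705 in LJP mice 1 and 3. The 8 markers of monocytes and macrophages summed to 10.2 to 13.9 CPM in Sham and 15.1 to 31.5 in LJP mice, and to 71.7, 178, 28.1 and 40.0 CPM in Vehicle mice 1 to 4; 6 were tested and 6 were higher in Vehicle than in Sham mice. The 8 neutrophil markers, of which 3 (Ly6g, Cxcr2 and Retnlg) had no count in any Sham mouse, reached at most 0.519 CPM in Sham and 1.11 in LJP mice, and 165, 40.5, 0.754 and 5.55 CPM in Vehicle mice 1 to 4. Vehicle mouse 2, the highest for every member, also had 1556 CPM over 6 fibroblast and mural markers, against 86.6 to 91.3 CPM in Sham, 169 to 295 CPM in the other 3 Vehicle and 77.9 to 145 CPM in LJP mice. It had 1370 CPM over 5 endothelial markers, against 171 to 185 CPM in Sham, 258 to 648 CPM in the other 3 Vehicle and 166 to 235 CPM in LJP mice. Of the fibroblast and mural markers 6 of 6, and of the endothelial markers 4 of 5, were higher in Vehicle than in Sham. Its 7 neuronal markers summed to 3942 CPM against 5132 to 6216 CPM in the other 3 Vehicle, 6325 to 7113 CPM in Sham and 5983 to 7029 CPM in LJP mice, and 3 of the 7 were lower in Vehicle than in Sham. The 6 astrocyte markers summed to 3591 to 4066 CPM in Sham, 3468 to 5449 in Vehicle and 4200 to 5479 in LJP mice, and 2 were higher and 1 lower in Vehicle than in Sham. Among them Gfap, the filament protein of reactive astrocytes, was at 141 ± 22.7 CPM in Sham, 2066 ± 604 in Vehicle and 1569 ± 524 in LJP mice, and the glutamate transporter gene Slc1a2, a large part of the sum, at 2983 ± 195, 1765 ± 650 and 2348 ± 133 CPM (SD, n = 4). The 6 oligodendrocyte markers summed to 3938 to 4810 CPM in Sham, 4917 to 5095 in Vehicle and 3839 to 4853 in LJP mice, and 1 of them, Cldn11, was higher in Vehicle than in Sham. Lymphocyte markers stayed at or under 1.07 CPM. Markers of lung epithelium, a tissue that the hemisphere does not hold, summed to 10.1 to 14.4 CPM in Sham, 11.9 to 18.2 in Vehicle and 1.28 to 2.68 in LJP mice, in which 3 of the 6 (Scgb1a1, Sftpa1 and Sftpd) had no count and 3 of 5 tested were lower than in either other group, where 0.0228% of all genes were lower than in Vehicle and 0.9% lower than in Sham. Choroid plexus markers varied widely, from 20.5 to 865 CPM in Sham, 11.2 to 501 in Vehicle and 11.4 to 364 in LJP mice.

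The comparison of the LJP group with the Vehicle group asked whether the polysaccharide altered the levels after occlusion. All 10 genes had a negative log2 fold change, as did 50.2% of all genes. None passed the edgeR test, by which 0.0228% of all genes were lower and 0% higher. At an unadjusted p below 0.05, 4 of the 10 were lower (Ctsc, Ctsh, Ctsk and Ctsl), where 17.4% of all genes were. DESeq2 called 3 lower (Ctsc, Ctsk and Ctsl, adjusted p = 0.0459, 0.0393 and 0.0260), where it called 9.36% of the genes it tested lower. Among cell type markers it called 5 of 5 endothelial, 5 of 6 fibroblast and mural, 5 of 8 neutrophil and 4 of 8 monocyte and macrophage markers lower. It also called 5 of 6 lung epithelium markers lower, 1 each of the astrocyte and oligodendrocyte markers, and 0 of the microglial and neuronal ones. Their part in the values of the members was not tested. The thresholds of the study, applied to the edgeR values, were passed by Ctsl alone, 1 of 10 against 5.89% of all genes. In none of the 10 were the groups free of overlap, which 5.91% of all genes were with LJP lower. The median log2 fold change of the 10 genes was -0.45, against -0.00 over all genes.

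Ctsl had the smallest p-value, with 172 ± 64.5 CPM (SD, n = 4) in the LJP and 321 ± 151 CPM (SD, n = 4) in the Vehicle group, a log2 fold change of -0.90 (95% interval -1.54 to -0.26, adjusted p = 0.0862). Ctsc had a log2 fold change of -0.98 (95% interval -1.75 to -0.20, adjusted p = 0.107), Ctsk one of -1.31 (95% interval -2.32 to -0.29, adjusted p = 0.102) and Ctsh one of -0.75 (95% interval -1.45 to -0.06, adjusted p = 0.144). These values moved with the Vehicle mice included. Without Vehicle mouse 2 the log2 fold changes were -0.53 for Ctsl, -0.55 for Ctsc, -0.47 for Ctsk and -0.36 for Ctsh. Without Vehicle mouse 3, Ctsc, Ctsk and Ctsl passed (adjusted p = 0.0451, 0.0255 and 0.0284), and without Vehicle mouse 4, Ctsl passed (adjusted p = 0.0490). These 2 fits called far more genes than the fit with all mice, 13.1% of all genes being lower in the LJP group without Vehicle mouse 3 and 8.38% without Vehicle mouse 4, and 3 and 1 of the 10 genes are few to set beside those shares.

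For the remaining 6 genes the differences were smaller and the intervals included 0. The log2 fold change was -0.51 for Lgmn (95% interval -1.05 to 0.04), -0.39 for Ctsz (-0.95 to 0.17), -0.34 for Ctss (-0.87 to 0.20), -0.32 for Ctsb (-0.76 to 0.12), -0.30 for Ctsa (-0.60 to 0.00) and -0.21 for Ctsd (-0.97 to 0.56), with adjusted p-values from 0.171 to 0.708. Ctsd thus had the widest interval among these 6, and its LJP levels of 771 to 1899 CPM fell within the Vehicle levels of 612 to 2035 CPM. Without Vehicle mouse 2 the log2 fold changes of these 6 genes were -0.23, -0.22, -0.06, -0.14, -0.19 and -0.03, in the same order.

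**Figure D3:**
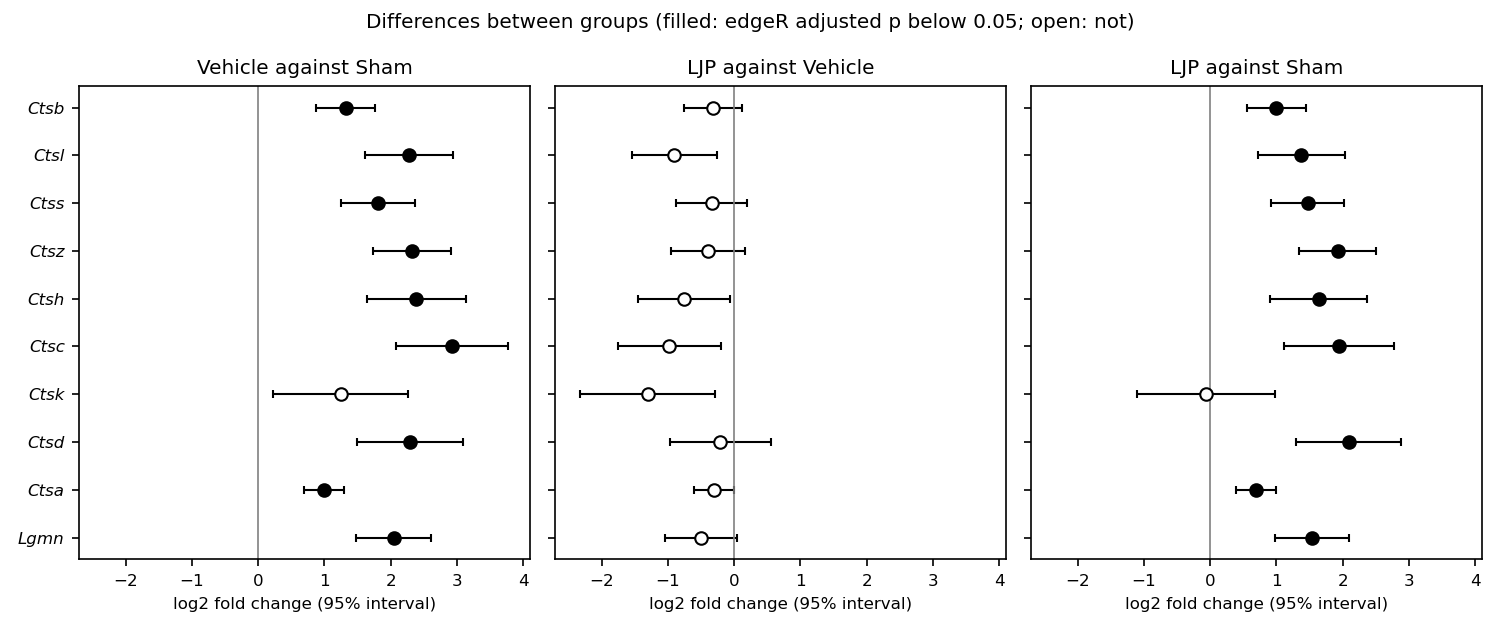
Points give the log2 fold change of each gene in the 3 comparisons and bars its 95% interval; filled points have an edgeR adjusted p below 0.05. In each comparison with the Sham group 9 points are filled and none between LJP and Vehicle, where all 10 lie left of 0.

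The LJP group was also compared with the Sham group, to see what differences were present after treatment. This comparison shares its mice with the other 2, so its values are given side by side with theirs and were not correlated with them. The same 9 genes were called higher, where 3.85% of all genes were. DESeq2 called them as well, against 5.6% of the genes it tested, and in each of them the groups did not overlap, which held for 12.9% of all genes. The share of 3.85% rests on a fit that includes the Vehicle mice. In a fit of LJP and Sham mice alone 4043 genes were called in either direction, against 834, and again 9 members. The log2 fold change was 2.09 for Ctsd, 1.95 for Ctsc, 1.93 for Ctsz, 1.64 for Ctsh, 1.54 for Lgmn, 1.47 for Ctss, 1.38 for Ctsl, 1.00 for Ctsb and 0.69 for Ctsa, with adjusted p-values from 0.00179 to 0.0199. Ctsk was at 3.17 ± 0.780 CPM in LJP and 3.30 ± 0.497 CPM in Sham mice (SD, n = 4; log2 fold change -0.06, 95% interval -1.10 to 0.98, adjusted p = 0.965). Ctsd had the largest value here and Ctsc in the Vehicle group. Omitting Sham mouse 1 left 5 called genes (without Ctsa, Ctsb, Ctsh and Ctsl), omitting Sham mouse 2 left 6 (without Ctsa, Ctsb and Ctsl), omitting Sham mouse 3 or LJP mouse 3 left 6 (without Ctsb, Ctsh and Ctsl), omitting Sham mouse 4 left 7 and omitting LJP mouse 1 left 8, all 9 genes staying higher in these fits, which called 1.96% to 2.39% of all genes higher. Ctsc, Ctsd, Ctss, Ctsz and Lgmn were called in all 12 fits, which called 1.96% to 7.77% of all genes higher.

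The genes around the cathepsins were described by lists written from general knowledge, whose counts between Vehicle and Sham stand beside the 22.7% of all genes that were higher and the 17.3% that were lower. Among 40 lysosomal hydrolases and their activators, 29 were higher in Vehicle than in Sham and 1 (Ids) was lower, with a median log2 fold change of 0.67. They included Man2b1 (lysosomal alpha-mannosidase, log2 fold change 0.99, adjusted p = 4.6e-05), Galns (1.63, adjusted p = 0.00010) and Gusb (beta-glucuronidase, 2.61, adjusted p = 0.00014). Of 18 lysosomal membrane proteins 12 were higher and 1 (Tmem106b) lower, the smallest p-values belonging to Cd68, a scavenger receptor-like protein of phagocytes (log2 fold change 3.61, adjusted p = 5.2e-05), Cd63 (2.32) and Laptm5 (2.00). Slc11a1, a metal ion transporter of phagocytes, had a larger p-value, with a log2 fold change of 3.22 (adjusted p = 0.00042). Of 17 tested subunits of the proton pump that acidifies the lysosome 2 were higher, Atp6v0e (1.03) and Atp6v1g1 (0.37), and 3 lower, among them Atp6v1h (-0.30), with a median of -0.07, shares below or near those of all genes. Of 10 genes that sort enzymes to the lysosome 4 were higher, among them Nagpa (0.74), which uncovers the mannose 6-phosphate tag, and its receptor M6pr (0.39), and 1 lower, the alternative receptor Sort1 (-0.60). Of 10 tested regulators of lysosomal genes 3 were higher, with Tfeb at 1.02 (adjusted p = 0.0012) and Tfe3 at 0.46, and 3 lower, among them Fnip1 at -0.31, shares not far from those of all genes. Without Sham mouse 1 the calls fell from 5 to 3 among the sorting genes and from 5 to 3 among the pump subunits; Sham mouse 2 and Vehicle mouse 2 had the same effect on the sorting genes, and Vehicle mouse 1 on the pump. These 4 fits called 29.5% to 34.5% of all genes in either direction.

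Of the other 13 mouse cathepsins on the list only Ctsf and Ctso had enough counts to be tested. Neither passed the edgeR test between Vehicle and Sham, with log2 fold changes of 0.13 (adjusted p = 0.211) and 0.26 (adjusted p = 0.0888), 1 of them passing an unadjusted p below 0.05 and neither by DESeq2. Ctso passed the edgeR test without Vehicle mouse 1, where 20.3% of all genes were higher. Ctsg and 8 cathepsins of the placenta had no count in any mouse, and Ctsw had at most 16. Ctse, which encodes the aspartic protease cathepsin E, was too low to be tested with edgeR, with 0, 0, 1 and 0 counts in Sham mice 1 to 4, 25, 26, 7 and 8 in Vehicle mice 1 to 4 and 5, 5, 10 and 0 in LJP mice 1 to 4. DESeq2 called it higher than in Sham in Vehicle (adjusted p = 0.00010) and in LJP mice (adjusted p = 0.0328), and gave it no adjusted p between LJP and Vehicle.

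Inhibitors moved unequally. Of 11 tested genes 7 were higher in Vehicle than in Sham and 1 (Cst6) lower, with a median log2 fold change of 1.38, which was the same with Cst7 and Serpina3g set to their bounds. Serpina3n, a secreted serpin that inhibits serine proteases such as granzyme B, had a log2 fold change of 5.71 (adjusted p = 1.5e-05), and Ctla2b, which resembles a cathepsin propeptide, one of 4.68 (adjusted p = 0.00054). Cst7, encoding cystatin F, the cystatin of immune cell lysosomes, had 2, 1, 3 and 1 counts in Sham mice 1 to 4 and 52, 107, 74 and 97 counts in Vehicle mice 1 to 4, at least 24.6-fold higher against a floor of 3 counts per library. It had 164, 35, 95 and 41 counts in LJP mice 1 to 4. Cstb, the intracellular cystatin B, had a log2 fold change of 1.38 (adjusted p = 0.0015). Cst3, encoding the abundant secreted cystatin C, was at 686 ± 18.6 CPM in Sham, 761 ± 69.6 in Vehicle and 715 ± 33.9 in LJP mice (SD, n = 4), with a log2 fold change of 0.15 between Vehicle and Sham (adjusted p = 0.148). A list of clients, which held proteins that cathepsins cut together with the carrier of some of them, had 6 tested genes, of which 4 were higher. They included Tlr7 (2.73) and Tlr9 (1.20), endosomal receptors that cathepsins cut before they signal, and Unc93b1 (1.93), which carries these receptors to endosomes and is not itself counted as a substrate.

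Between LJP and Vehicle no gene of these lists passed the edgeR test. At an unadjusted p below 0.05, 11 of 40 hydrolases, 5 of 18 membrane proteins and 6 of 11 inhibitors were lower, where 17.4% of all genes were, and 1, 1 and 0 of them were higher, where 12.3% of all genes were. DESeq2 called 4, 2 and 5 of them lower, the first 2 of these counts being close to the 9.36% of the genes it tested. It also called 1 regulator lower, and 2 regulators and 1 pump subunit higher, where 3.81% of the genes it tested were. Of the pump subunits 3 were higher and 1 lower at the unadjusted threshold, of the sorting genes 1 and 1, of the regulators 2 and 1, and of the clients 0 and 1. Without Vehicle mouse 3 the edgeR test called 7 hydrolases, 4 membrane proteins, 6 inhibitors and 1 client lower, and 2 pump subunits, 3 sorting genes and 3 regulators in either direction, where 13.1% of all genes were lower and 21.6% were called in either direction. Without Vehicle mouse 4 it called 5 hydrolases, 2 membrane proteins and 5 inhibitors lower, and 1 sorting gene and 3 regulators in either direction, where these shares were 8.38% and 11.7%. Most of these counts lay near the shares of all genes, with 6 and 5 of the 11 tested inhibitors farthest from them. Cstb had a log2 fold change of -0.79 (adjusted p = 0.0762), Serpina3n one of -1.41 (adjusted p = 0.0678) and Cst7 one of 0.05 (adjusted p = 0.941). Tfeb was at 13.7 CPM in the LJP and 23.3 CPM in the Vehicle group, with a log2 fold change of -0.77 (adjusted p = 0.0678, DESeq2 adjusted p = 0.0036). Against Sham, 10 of 40 hydrolases (16 by DESeq2), 5 of 18 membrane proteins, 3 of 11 inhibitors, 3 of 6 clients and 1 of 17 pump subunits were higher in the LJP group, where 3.85% of all genes were, and none was lower by edgeR. Without Vehicle mouse 2 these counts were 18 for hydrolases and 8 for membrane proteins, where 7.77% of all genes were higher, and the pump subunit lost its call without any 1 of the 4 Sham mice or of LJP mice 1 to 3.

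**Figure D4:**
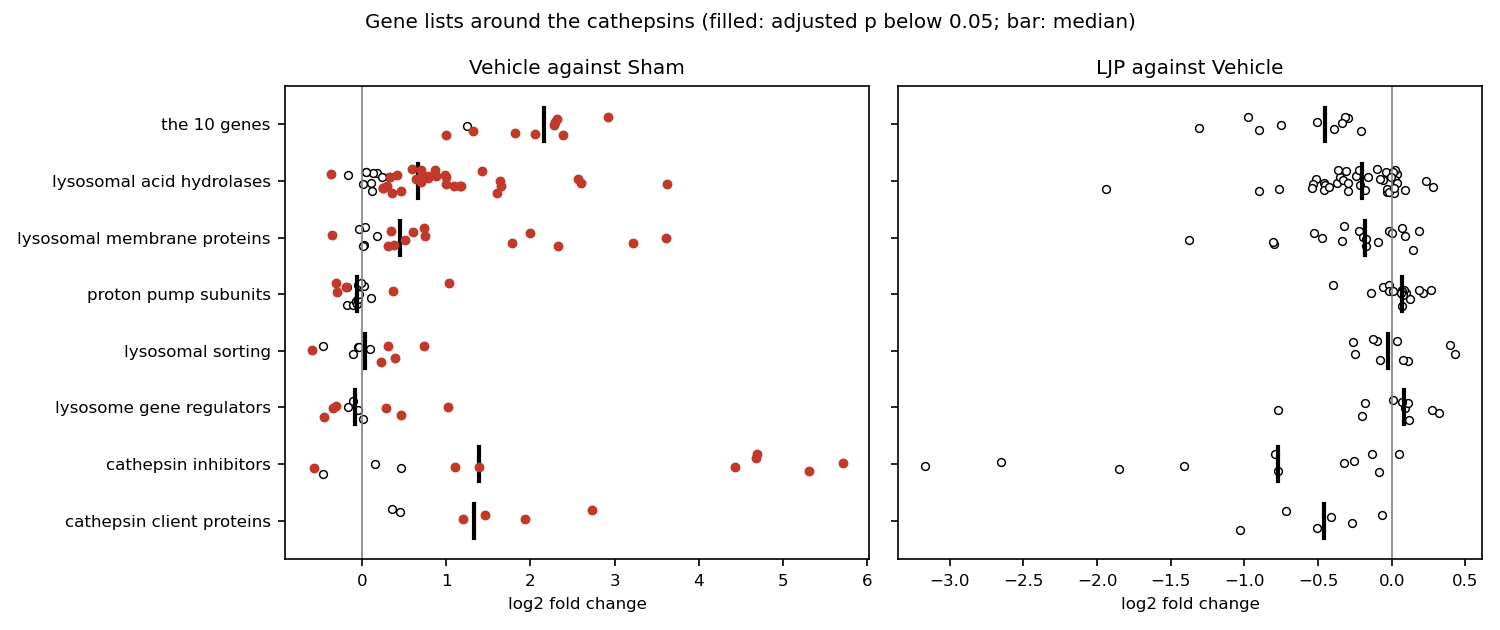
Each point is a gene of the list named at the left, placed by its log2 fold change between Vehicle and Sham (left panel) or LJP and Vehicle (right panel); filled points have an adjusted p below 0.05 and bars are medians. The 10 genes have the highest median in the left panel at 2.17, the proton pump stays near 0, and the right panel has no filled point.

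The ratio of protease counts to those of Cst3 was also followed, since it does not depend on how libraries are scaled. Cst3 itself did not pass the test, so the ratio mainly repeats the difference of the protease, and it does not stand for other inhibitors: the log2 fold change of Cstb between Vehicle and Sham, 1.38, was no smaller than that of Ctsb, 1.32. Against Sham, the log2 ratio was higher in the Vehicle group by 1.14 for Ctsb, 2.03 for Ctsl and 1.61 for Ctss, and in the LJP group by 0.90, 1.25 and 1.35. In each of these 6 comparisons the groups did not overlap, with p = 0.0286 in a two-sided exact permutation test, the smallest p that 4 against 4 mice can give, and 0.0429 after adjustment over the 9 ratio tests. Between LJP and Vehicle the log2 ratio differed by -0.24 for Ctsb (p = 0.457), -0.78 for Ctsl (p = 0.114) and -0.26 for Ctss (p = 0.543, exact permutation tests), and the groups overlapped. Without Vehicle mouse 2 these differences were -0.04, -0.45 and 0.01. Ctsb counts were 0.807 to 0.824 of the Cst3 counts in Sham mice and 1.41 to 2.76 times them in Vehicle mice.

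**Figure D5:**
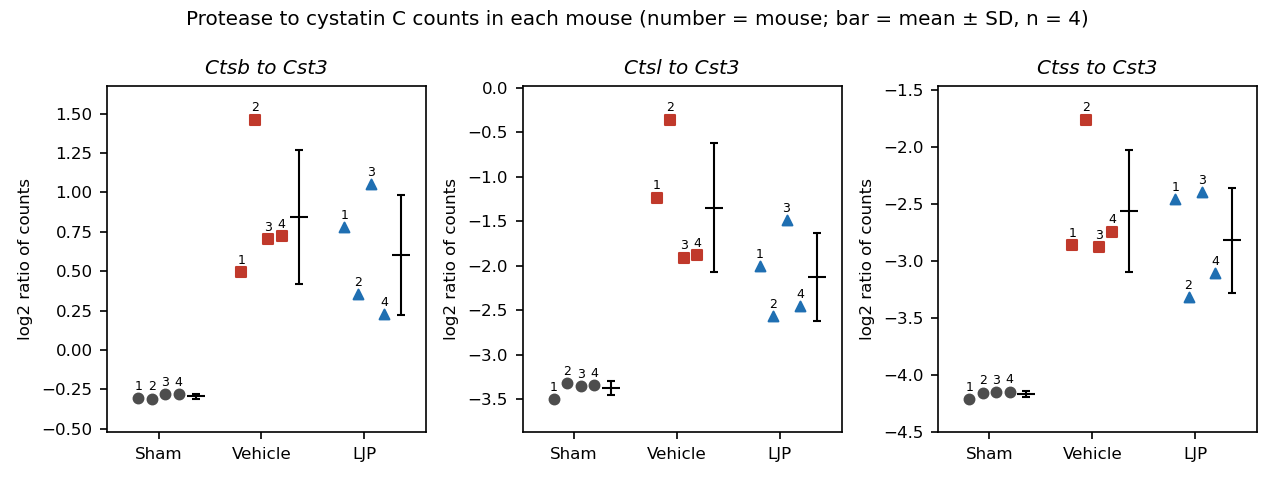
The 3 panels plot the log2 ratio of Ctsb, Ctsl or Ctss counts to Cst3 counts in each mouse (numbered symbols) with the mean ± SD of 4 mice per group. All Vehicle and LJP mice lie above all Sham mice in each panel, and the Vehicle and LJP mice overlap.

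The genes whose pattern over the 12 mice was most like that of each member were found by the root mean square difference of mean-centred log2 CPM, where 0 would be an identical pattern. Ctsa was nearest to the hydrolase gene Man2b2 (0.0543). Ctsd was nearest to Trem2 (0.138), a lipid receptor of microglia, and Olfml3 (0.213). Ctsz was nearest to Grn (0.125), which encodes the lysosomal protein progranulin, and Tnfaip8l2 (0.133), and Lgmn to Tnfaip8l2 (0.133) and Renbp (0.146). Ctss was nearest to Renbp (0.124) and Laptm5 (0.136). Ctsc was nearest to Spi1 (0.174), which encodes PU.1, and Tnfrsf1b (0.193), and Ctsh to Tcirg1 (0.198) and Anxa4 (0.198). Ctsl was nearest to Ftl1 (0.0998), the ferritin light chain, and Pros1 (0.118), and Ctsb to Ccnd1 (0.0964) and Slco2b1 (0.108). Ctsk stood apart from the other members: its nearest genes were Msrb3 (0.237) and Klf2 (0.237), and its nearest member, Ctsa, was at 0.667, whereas Ctss and Lgmn were 0.157 from each other. These values describe likeness over mice that share their group differences and carry no test.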

How the data were processed

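The authors deposited raw counts of reads per gene for 12 mice, with gene symbol, position and length, and without normalization. Their processing notes name featureCounts, DESeq2 and the builds GRCm39 and mm10 (the other name of GRCm38), and member positions equal GRCm38; the aligner, the strand setting and the handling of shared reads are not given in the sources used here. Groups were taken from the sample titles and libraries from the sample descriptions. The study's own thresholds were an absolute log2 fold change over 0.58 with p below 0.01 in DESeq2. Here they were applied to the edgeR values.

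The tests used edgeR 4.0.16 (R 4.3.3). Of the 30210 genes with a count, filterByExpr kept 17558, libraries were scaled by TMM, and all 12 mice entered 1 quasi-likelihood fit with 1 term for each group. Genes were called at a Benjamini-Hochberg adjusted p below 0.05. The standard error is the log2 fold change divided by the root of F. Nearest genes used log2 CPM with a prior count of 2. Permutation tests (scipy 1.17.1) were exact and two-sided. The test was run on simulated counts with 200 changed genes and the same spread in all groups. It recovered 81% of them, and 5.26% of its calls were false. Vehicle mice varied more than Sham mice, which the simulation did not copy, so it cannot give the error rate in these data. Alternatives were DESeq2 1.42.0, RLE factors, library size only, no filter, the replicate number as a block, a fit of only 2 groups, an adjusted p below 0.1, the study's thresholds and leaving out each mouse; GENCODE lengths were added after seeing the data. The members and lists were chosen with earlier results of these data known.

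Besides the 10 members, the text names Cst3, Cst7 and Cstb, the 3 genes of each list with the smallest p between Vehicle and Sham, some cell type markers as examples or because they were at 0, and for each member the 2 genes with the nearest pattern, of which 1 is not reported here. Neighbours on the opposite strand, the genes of a list that fell where only 1 did, Ctse, Ctsg, Ctsw and Serpina3g were named after their values were seen. Total counts per mouse were 17960353 to 22216315. No library looked like a copy of another, since within groups the chi-square of any pair, divided by its degrees of freedom, was 2.48 or more.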

Additional observations from a re-analysis of the deposited data

Results flagged for a closer look

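The highest or lowest mouse of a group was far from the other 3 by Dixon's ratio (its gap to the nearest mouse over the range of the group, critical value 0.829 for 4 mice) in 4 of 39 groups tested, where chance gives 1.95. Ctsh had a ratio of 0.932 in the Vehicle group, where mouse 2 was at 79.6 CPM and the others at 33.7 to 36.8 CPM. The log2 ratio of Ctss to Cst3 had 0.881 in the Vehicle group, with mouse 2 at -1.76 and the others at -2.88 to -2.74. Sham mouse 1 was the low mouse in the other two cases, the log2 ratios of Ctsl to Cst3 (0.847; -3.50 against -3.35 to -3.32) and of Ctss to Cst3 (0.857; -4.21 against -4.16 to -4.15). Fibroblast, mural and endothelial markers were also highest in Vehicle mouse 2, and their part in these values was not tested.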

How the results depend on the processing

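Between Vehicle and Sham, 9 to 10 members were called under all alternatives and single-mouse omissions, the tenth being Ctsk. Over all genes 7014 were called, and 5285 to 8200 when a mouse was left out. The study's thresholds, which here and below were applied to the edgeR values, gave 3807. Between LJP and Vehicle, where no member was called, DESeq2 called 3, an adjusted p below 0.1 called 1, the study's thresholds called 1, and leaving out a mouse gave 0 to 3. The gene count of this comparison rested on the processing. The main fit called 4 genes, against 593 without the filter, 2 with the replicate number as a block and 2 in a fit of the 2 groups. DESeq2 called 2307, an adjusted p below 0.1 called 2615, and the study's thresholds on edgeR values called 1223. Leaving out a mouse gave 3 to 3857. Between LJP and Sham the gene count was 834, against 464 with the replicate block, 4043 in a fit of the 2 groups, 1454 by DESeq2, 1384 at an adjusted p below 0.1 and 393 to 2357 when a mouse was left out (2357 without Vehicle mouse 2), while 5 to 9 members were called. No called result changed its direction. Among values that had not passed a test, the log2 fold change of Ctsk between LJP and Sham turned from -0.06 to 0.037 without Sham mouse 1 and 0.072 without LJP mouse 1 (range -0.212 to 0.072), and the log2 ratio of Ctss to Cst3 between LJP and Vehicle from -0.26 to 0.0098 without Vehicle mouse 2 (range -0.399 to 0.0098). The cause of these changes was not tested. Same-numbered mice did not deviate together (correlations of -0.32 to 0.11), so the numbers were not treated as pairs; the block left 9, 0 and 6 members called in the 3 comparisons, losing Ctsa, Ctsb and Ctsl between LJP and Sham. With GENCODE lengths, levels per kb moved by more than their SD for Ctsc in the 3 groups, for Ctsk and Ctsl in Sham and LJP mice, and for Ctsd and Ctss in Sham mice, and the order of Ctss and Ctsz in Sham mice and of Ctsl and Ctsa in LJP mice turned. Ctsk rests on 50 to 422 counts per mouse, and with 3 against 4 mice an exact permutation p cannot fall below 0.0571. The unstated sampling time and strand setting limit what the levels can be compared with.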
